A study of Arabidopsis thaliana with 11 samples.

Results

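A set of 10 genes for sugar uptake and for sugar transport across the vacuolar membrane were followed in *Arabidopsis thaliana* roots, chosen by gene identifier from the 33341 in the deposited count tables. These 10 genes were *STP1* (AT1G11260), *STP4* (AT3G19930), *STP13* (AT5G26340), *SUC1* (AT1G71880), *PMT5* (AT3G18830), *SUC4* (AT1G09960), *TST1* (AT1G20840), *TST2* (AT4G35300), *ERD6* (AT1G08930) and *ESL1* (AT1G08920). All 10 passed the filter on low counts, with 136 counts (*STP13*) to 8919 counts (*ERD6*) in a sample. Roots came from soil-grown Col-0 wild type (WT) plants and from *BRL3ox* plants, which carry 35S:BRL3, the brassinosteroid receptor gene *BRL3* under a viral promoter that is active in most tissues. Each genotype was either watered (control, or basal conditions) or left without water for 5 days (drought). Seedlings of both genotypes had first spent 7 days on agar without sucrose and 16 days in soil at 22 °C under 16 h of light, and the whole root systems were washed out of the soil at a labelled age of 28 days. The RNAseq samples numbered 3 for WT control, 3 for WT drought, 3 for *BRL3ox* drought and 2 for *BRL3ox* control (replicates 1 and 3, while replicate 2 was not analysed here). A single overexpression line was compared, and the labels call the samples biological replicates without giving the number of plants in each, so p-values measure the spread between these samples.

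Sugars move through plants as sucrose and as its hexose products. Symporters of the plasma membrane, such as the STP hexose carriers and the SUC sucrose carriers, draw sugar into cells together with protons. At the vacuolar membrane (tonoplast), TST carriers load sugars into the vacuole, while SUC4 and carriers of the ERD6-like family can let them out. Roots depend on sugar imported from the shoot, and stored sugars also act as osmolytes when water is short.

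The samples held 18610736 to 22817390 counts on genes. *BRL3* was at 44.8 to 70.8 CPM (counts scaled by normalized library size) in the WT samples. It was at 974 and 1652 CPM in *BRL3ox* control and at 2447 to 3180 CPM in *BRL3ox* drought samples, so every sample matched its genotype label. Within *BRL3ox* its RNA was thus 2.17-fold higher in drought (edgeR adjusted p = 0.0106). The part of this difference in the results was not tested. For the 4 drought marker genes, the summed level in control was 110 to 178 CPM for WT and 187 and 204 CPM for *BRL3ox*. After drought this sum rose to 1177 to 1602 CPM for WT and to 1998 to 2641 CPM for *BRL3ox*. Every *BRL3ox* sum was thus above every WT sum of the same condition. The single markers were less uniform. *RD22* was called higher in *BRL3ox* in control and in drought (log2 difference 1.26 and 1.13), and *RD29B* in drought (1.41) but not in control (1.27). *RAB18* (2.03 and 1.38) and *RD29A* (-0.02 and 0.53) were called in neither. Whether these marker differences bear on the comparisons between genotypes was not tested. None of the 8 root marker genes was at 0 in any sample. Leaf marker genes (6 genes) summed to 6.88 to 251 CPM, highest in WT control replicate 2, and phloem marker genes (5 genes) to 348 to 603 CPM.

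Of the 10 genes, 6 lie on chromosome 1. *ESL1* (chr1:2867203-2870745) and *ERD6* (chr1:2873300-2877270), which belong to 1 family, are neighbours on the + strand of the TAIR10.1 assembly, and 2554 bases separate them. Their promoters were taken here as the 250 bases before the annotated gene start. They are shown because *ESL1* rose with drought in both genotypes and *ERD6* passed the test in neither. In WT *ERD6* missed it narrowly (log2 fold change 0.84, edgeR adjusted p = 0.0530), and a difference in response between the 2 genes was not tested. Capitals mark CCGAC, the core of the dehydration-responsive element, and TTGAC, the core of the W-box, on either strand. *ESL1* held a match of each, and *ERD6* held a TTGAC.
ESL1 promoter, chr1:2866953-2867202, + strand: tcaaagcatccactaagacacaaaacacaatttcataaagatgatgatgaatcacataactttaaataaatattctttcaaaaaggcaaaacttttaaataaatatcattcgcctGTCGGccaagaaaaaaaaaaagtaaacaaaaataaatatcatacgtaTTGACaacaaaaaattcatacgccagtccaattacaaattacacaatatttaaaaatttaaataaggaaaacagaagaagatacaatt
ERD6 promoter, chr1:2873050-2873299, + strand: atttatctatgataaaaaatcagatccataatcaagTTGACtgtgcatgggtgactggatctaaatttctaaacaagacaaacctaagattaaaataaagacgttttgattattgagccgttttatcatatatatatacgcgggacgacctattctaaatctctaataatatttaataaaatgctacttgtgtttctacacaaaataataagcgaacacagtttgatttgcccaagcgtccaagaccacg

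The promoters of *TST1* and *TST2* are shown because *TST2* rose with drought in both genotypes while *TST1* was not called in either. The capitals again mark TTGAC (*TST1*, read on the opposite strand) and CCGAC (*TST2*).
TST1 promoter, chr1:7248495-7248744, - strand: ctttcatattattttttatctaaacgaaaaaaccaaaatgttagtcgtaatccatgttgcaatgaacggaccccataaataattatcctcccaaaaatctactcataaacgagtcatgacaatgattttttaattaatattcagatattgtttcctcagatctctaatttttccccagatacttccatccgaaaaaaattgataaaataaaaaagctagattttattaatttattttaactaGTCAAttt
TST2 promoter, chr4:16799824-16800073, - strand: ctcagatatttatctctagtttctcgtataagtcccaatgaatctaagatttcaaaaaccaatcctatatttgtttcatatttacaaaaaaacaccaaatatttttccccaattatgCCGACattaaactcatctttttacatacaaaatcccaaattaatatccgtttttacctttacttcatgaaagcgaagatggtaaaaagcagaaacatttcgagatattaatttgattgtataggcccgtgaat

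The promoter of *SUC1* is shown since this was the one gene of the 10 that fell with drought in both genotypes. The capitals mark the palindrome CACGTG (G-box), which also holds ACGTG, the core of the abscisic acid-responsive element, on each strand.
SUC1 promoter, chr1:27053780-27054029, + strand: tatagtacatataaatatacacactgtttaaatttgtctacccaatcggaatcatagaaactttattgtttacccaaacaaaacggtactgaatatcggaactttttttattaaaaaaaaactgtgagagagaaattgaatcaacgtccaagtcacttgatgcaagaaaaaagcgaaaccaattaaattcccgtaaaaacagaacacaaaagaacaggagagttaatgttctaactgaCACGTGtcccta

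Across all 27443 promoters of this length, read on both strands, ACGTG was found in 22.9%, CACGTG in 6.49%, CCGAC in 12% and TTGAC in 44.9%. Among the 10 transporter genes, 2 promoters held ACGTG (*SUC1* and *PMT5*), 1 held CACGTG, 3 held CCGAC (*STP13*, *TST2* and *ESL1*) and 5 held TTGAC. The letters CGTGTG and CGTGCG, both forms of the brassinosteroid response element, were found in 0 of the 10 promoters and in 5.37% and 1.57% of all promoters. These matches describe the letters in the window and nothing about binding.

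Per kilobase of annotated exon, the scale on which levels of different genes can be compared, the genes covered a wide span. In WT control roots *ERD6* had the highest mean level (113 ± 52.0 CPM per kb, SD, n = 3), followed by *SUC1* (96.9 ± 18.4), *ESL1* (81.9 ± 17.5) and *STP1* (81.8 ± 13.7), and these 4 neighbours lay within their spread. *STP4* (45.7 ± 5.05) and *TST1* (40.3 ± 0.117) came next, then *PMT5* (29.0 ± 6.12) and *TST2* (28.0 ± 4.14), then *SUC4* (12.8 ± 0.866), and *STP13* was lowest (4.52 ± 2.17). In *BRL3ox* control roots *SUC1* stood first (mean of the 2 samples 90.4 CPM per kb) and *STP13* last (3.3). After drought the first place was held by *ERD6* in WT (203 ± 27.1) and by *ESL1* in *BRL3ox* (125 ± 19.1), and *TST2* moved from place 8 to place 4 in WT and from place 7 to place 3 in *BRL3ox*. *STP13* stayed last in all 4 groups. Summed over the 10 genes, the level was 486 to 620 CPM per kb in WT control, 659 to 793 in WT drought, 376 and 447 in *BRL3ox* control and 496 to 516 in *BRL3ox* drought samples. The highest *BRL3ox* sum thus lay under the lowest WT sum in control and in drought, differences for which no test was run. In drought *ERD6* differed most between the genotypes (means of 203 in WT and 77.2 CPM per kb in *BRL3ox*). *TST2* (57.3 and 73.2) and *SUC4* (19.4 and 22.6) were higher in *BRL3ox*.

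**Figure D1:**
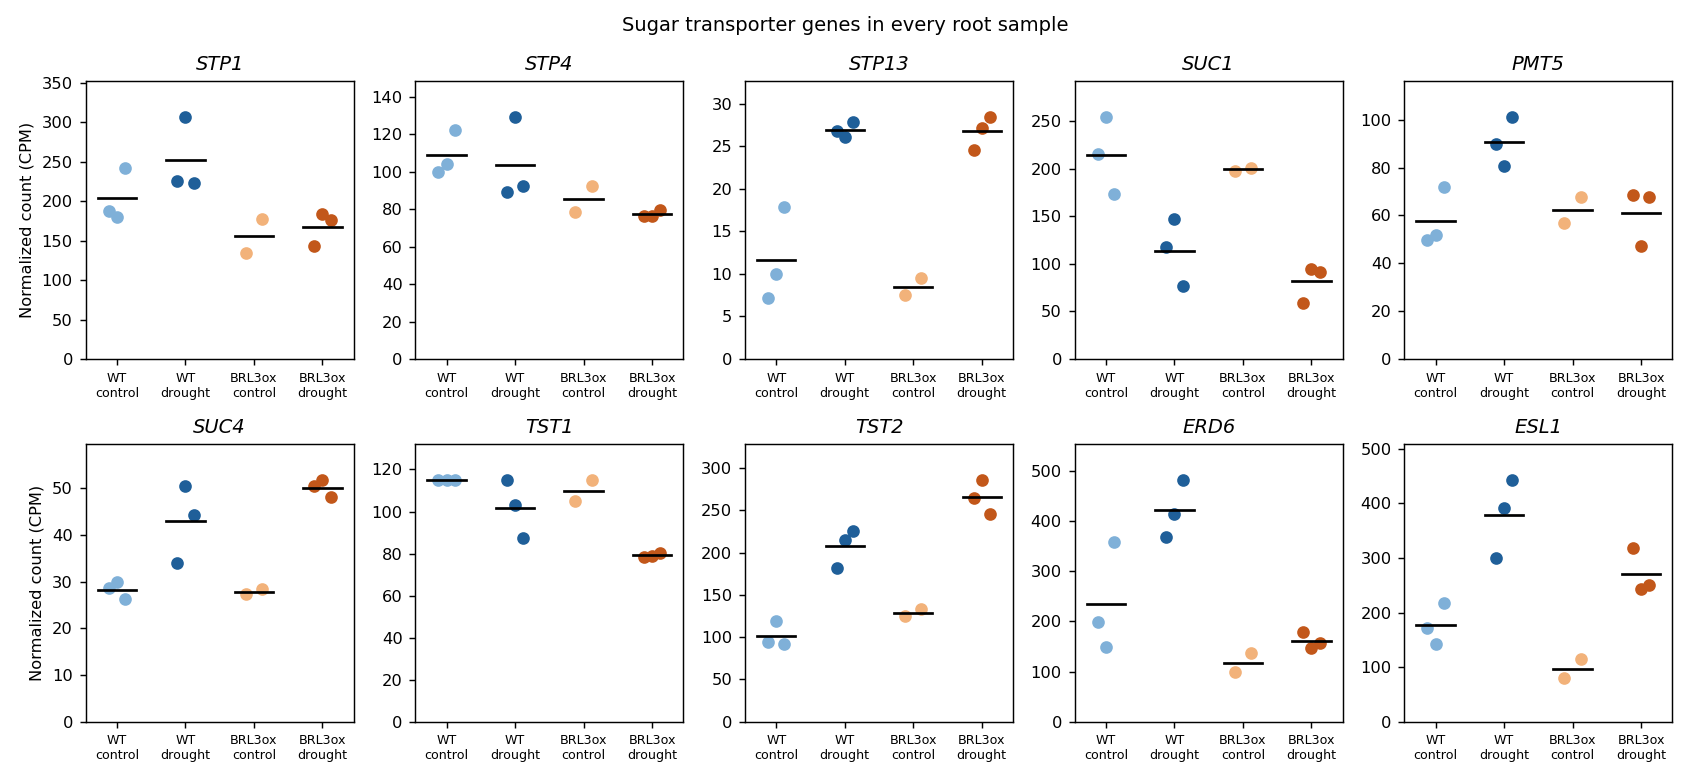
Normalized count (CPM, linear axis from 0) of each of the 10 transporter genes in every sample, by group, with a point for each sample and a line at the group mean. *TST2* and *ESL1* lie higher in drought in both genotypes, *SUC1* lies lower, and *ERD6* lies between 147 and 179 CPM in *BRL3ox* drought samples against 369 to 482 CPM in WT drought samples.

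The first comparison asked which transporter genes respond to 5 days of drought in WT roots. Of the 10 genes, 5 rose (*STP13*, *PMT5*, *SUC4*, *TST2* and *ESL1*), 1 fell (*SUC1*), and *STP1*, *STP4*, *TST1* and *ERD6* did not pass the test. Genes were called at a Benjamini-Hochberg adjusted p under 0.05 in edgeR's quasi-likelihood test together with a fold change over 1.5, and 12.4% of the 20718 genes tested were called in this comparison, 7.54% higher and 4.84% lower. The groups did not overlap for 7 of the 10 genes, 6 higher and 1 lower, beside 34.5% of all genes. The median log2 fold change was 0.63 over the 10 genes and -0.02 over all genes tested. In whole roots, fewer cells of a type and less RNA per cell cannot be told apart.

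Among the plasma membrane hexose carriers, *STP13*, a high-affinity symporter known from stress and pathogen responses, was at 7.14, 9.96 and 17.9 CPM in the WT control samples and at 26.8, 26.1 and 27.8 CPM in the WT drought samples. All drought samples were above all control samples, and the control samples were the more scattered, with replicate 3 the highest. The change was 2.31-fold (log2 fold change 1.21, SE 0.26, edgeR adjusted p = 0.0104). *STP1*, the main hexose carrier of many sink tissues, was at 188, 180 and 242 CPM in control and 225, 306 and 223 CPM in drought samples. Its groups overlapped, and its log2 fold change of 0.31 (SE 0.17) did not pass the test (edgeR adjusted p = 0.246). *STP4*, another hexose symporter, was at 100 to 122 CPM in control and 89.4 to 129 CPM in drought samples, with a log2 fold change of -0.07 (SE 0.14).

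*SUC1*, a proton-coupled sucrose carrier of the plasma membrane, was at 215, 254 and 173 CPM in control and at 118, 147 and 77.0 CPM in drought samples. Every drought sample lay under every control sample, and the level was 1.88-fold lower (log2 fold change -0.91, SE 0.24, edgeR adjusted p = 0.0273). *PMT5*, a carrier of broad range that takes up polyols and monosaccharides, was at 49.9, 51.8 and 71.9 CPM in control and 90.0, 80.7 and 101 CPM in drought samples. Its groups did not overlap either, and the rise was 1.57-fold (log2 fold change 0.65, SE 0.18, edgeR adjusted p = 0.0301).

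At the tonoplast, *TST2* had the smallest adjusted p of the 10 genes, with 94.2, 119 and 92.0 CPM in control and 182, 215 and 226 CPM in drought samples. The lowest drought sample was well above the highest control sample, and the rise was 2.04-fold (log2 fold change 1.03, SE 0.12, edgeR adjusted p = 7.2e-04). Its paralog *TST1*, the other main sugar importer of the vacuole, was at 115 CPM in each of the 3 control samples and at 115, 103 and 87.5 CPM in drought samples. The first drought sample was thus level with the controls, and the log2 fold change of -0.17 (SE 0.10) did not pass the test (edgeR adjusted p = 0.235). *SUC4*, the sucrose exporter of the vacuole, was at 28.7, 30.0 and 26.2 CPM in control and 34.1, 50.6 and 44.4 CPM in drought samples. All its drought samples were above the controls, by 1.52-fold on average (log2 fold change 0.61, SE 0.13, edgeR adjusted p = 0.00943), just over the fold threshold.

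*ESL1*, a facilitative monosaccharide carrier of the tonoplast, was at 171, 143 and 218 CPM in WT control and 300, 392 and 443 CPM in WT drought samples. The groups were separate, and the rise was 2.13-fold (log2 fold change 1.09, SE 0.21, edgeR adjusted p = 0.00606). *ERD6*, the gene that gave the family its name and was first found as induced by dehydration, was at 199, 150 and 358 CPM in control and 369, 415 and 482 CPM in drought samples. Its groups did not overlap, but control replicate 3 lay close to the lowest drought sample. The log2 fold change of 0.84 (SE 0.27) missed the threshold (edgeR adjusted p = 0.0530), and without WT control replicate 3 it was 1.28 (SE 0.19, adjusted p = 0.00189).

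Some of these calls rested on single libraries. Without WT drought replicate 3, *SUC1* (log2 fold change -0.69, edgeR adjusted p = 0.0787), *PMT5* (0.56, adjusted p = 0.102) and *SUC4* (0.58, adjusted p = 0.0353 with the fold under 1.5) were no longer called. *SUC1* and *PMT5* were also lost without WT control replicate 1 (adjusted p = 0.0698 and 0.103) or replicate 2 (0.0949 and 0.0995). *SUC4* fell under the fold threshold without WT drought replicate 2 (0.47) or WT control replicate 3 (0.55). The calls of *STP13*, *TST2* and *ESL1* in WT held with each single library left out. In WT control roots, 9 touch- and wound-responsive genes summed to 4350, 2958 and 5873 CPM in replicates 1, 2 and 3, which is also the order of *ERD6* and *ESL1*, and they summed to 5522 to 7768 CPM in WT drought roots. Their part in the results was not tested.

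The second comparison asked the same of *BRL3ox* roots. A group of 4 genes rose with drought (*STP13*, *SUC4*, *TST2* and *ESL1*) and *SUC1* fell, which are the calls of WT without *PMT5*. In this comparison 16.1% of all genes tested were called, 9.14% higher and 6.98% lower, and the median log2 fold change was 0.28 over the 10 genes and -0.02 over all genes. The groups did not overlap for 7 of the 10 genes, 5 higher and 2 lower, beside 56.5% of all genes.

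*STP13* was at 7.47 and 9.54 CPM in *BRL3ox* control and at 24.6, 27.2 and 28.4 CPM in *BRL3ox* drought samples. The drought samples were all above both controls, by 3.14-fold (log2 fold change 1.65, SE 0.30, edgeR adjusted p = 0.00424). *SUC1* was at 198 and 201 CPM in control and at 58.7, 94.7 and 91.4 CPM in drought samples. No drought sample came near the controls, and the level was 2.45-fold lower (log2 fold change -1.29, SE 0.27, edgeR adjusted p = 0.00761). *STP1* (134 and 177 CPM in control, 143 to 184 CPM in drought) and *STP4* (78.3 and 92.5 CPM, then 76.2 to 79.4 CPM) did not pass the test, nor did *PMT5*, at 56.9 and 67.8 CPM in control and 68.4, 47.1 and 67.8 CPM in drought samples (log2 fold change -0.03, SE 0.20).

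Of the tonoplast genes, *TST2* was at 125 and 133 CPM in control and 265, 286 and 246 CPM in drought samples. All drought samples were clear of the controls, and the rise of 2.06-fold (log2 fold change 1.04, SE 0.14, edgeR adjusted p = 0.00117) was close in size to that of WT. *TST1* was at 105 and 115 CPM in control and 78.6, 78.9 and 80.1 CPM in drought samples. Its drought samples lay tightly together below the controls, and its log2 fold change of -0.47 (SE 0.11) had an edgeR adjusted p of 0.0111 but a fold of 1.39, under the threshold for a call. *SUC4* was at 27.3 and 28.5 CPM in control and at 50.5, 51.8 and 48.1 CPM in drought samples, a rise of 1.80-fold (log2 fold change 0.85, SE 0.14, edgeR adjusted p = 0.00303) with no overlap.

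*ESL1* was at 79.3 and 115 CPM in control and at 319, 244 and 250 CPM in drought samples. All drought samples were above both controls, with a rise of 2.80-fold (log2 fold change 1.48, SE 0.24, edgeR adjusted p = 0.00251). Its neighbour *ERD6* was at 99.1 and 137 CPM in control and at 179, 147 and 157 CPM in drought samples. The groups did not overlap, but the log2 fold change of 0.45 (SE 0.31) did not pass the test (edgeR adjusted p = 0.326). With only 2 control libraries some calls depended on 1 of them. Without *BRL3ox* control replicate 1, *STP13* (log2 fold change 1.49, edgeR adjusted p = 0.0534) and *SUC1* (adjusted p = 0.0508) were lost, and without replicate 3 *SUC1* was lost (-1.28, adjusted p = 0.0522). The touch- and wound-responsive genes summed to 2206 and 2799 CPM in control and to 5747 to 6271 CPM in drought samples here. Of the 8 root markers, *CASP1* (log2 fold change -0.88), *CASP2* (-0.93), *SHR* (-0.84) and *SCR* (-0.70) were called lower with drought in *BRL3ox* and none higher. The part of these markers in the results was not tested.

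**Figure D2:**
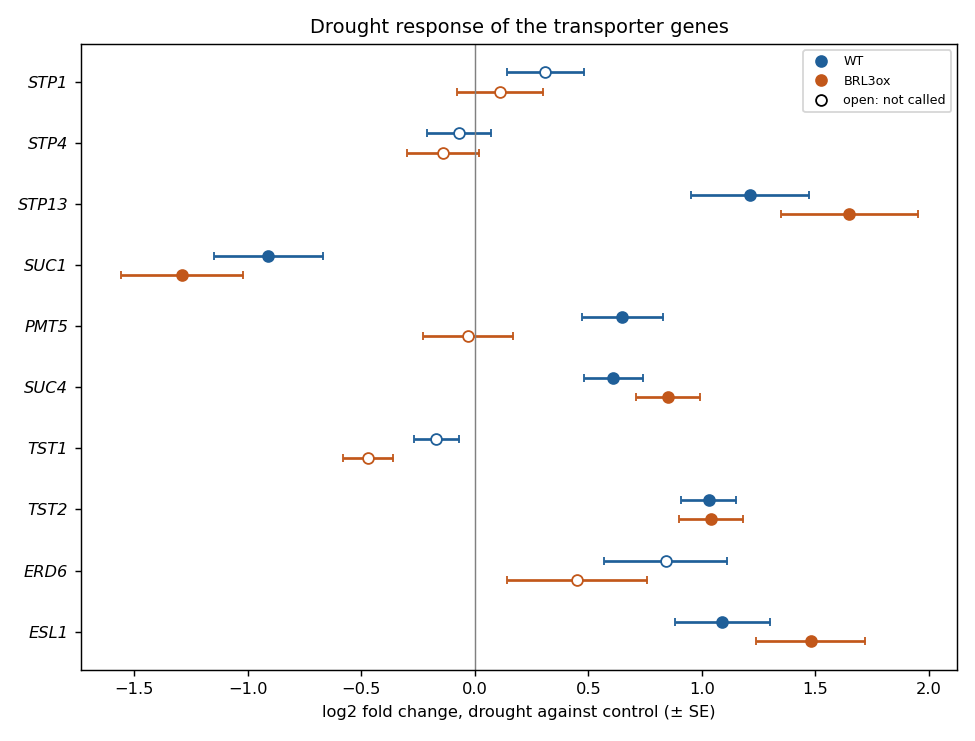
Log2 fold change of drought against control (± SE from the edgeR fit) for the 10 transporter genes in WT and *BRL3ox* roots, with filled points for called genes. *STP13*, *SUC4*, *TST2* and *ESL1* lie to the right and *SUC1* to the left in both genotypes, while *PMT5* is at 0.65 in WT and at -0.03 in *BRL3ox*.

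The next question was whether the drought response itself depended on genotype. None of the 10 genes passed the interaction test (edgeR, unadjusted p under 0.0025), which 0.951% of all genes passed, and at an unadjusted p under 0.05 there was 1 of the 10, *PMT5*, about the share of all genes under that p (10.8%). Its response was lower in *BRL3ox* than in WT by a log2 difference of -0.68 (SE 0.27), with an edgeR adjusted p of 0.410. DESeq2 and edgeR's likelihood ratio test also called 0 of the 10 genes. For *TST2* the difference was 0.01 on the log2 scale, for *STP13* 0.44 and for *ESL1* 0.39. The value for *STP13* was 0.00 without WT control replicate 3 and 0.70 without WT control replicate 1, and that for *ESL1* was 0.15 without *BRL3ox* control replicate 1 and 0.68 without *BRL3ox* control replicate 3. A call in 1 genotype only, as for *PMT5*, was therefore not shown to be a difference between genotypes.

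Under basal conditions, the comparison of *BRL3ox* with WT roots asked whether the receptor alters transporter levels in watered plants. None of the 10 genes was called by edgeR's quasi-likelihood test, where 0.772% of all genes were. At an unadjusted p under 0.05 there were 3 genes, the lower *ERD6* and *ESL1* and the higher *TST2*, beside 16.0% of all genes. Both DESeq2 and edgeR's likelihood ratio test called 2 genes, *ERD6* and *ESL1*, and these tests called 4.18% and 4.46% of all genes.

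*ERD6* had a log2 difference of -1.00 (SE 0.31, edgeR adjusted p = 0.146) in basal conditions, with *BRL3ox* samples at 99.1 and 137 CPM against a lowest WT value of 150 CPM. *ESL1* had a log2 difference of -0.87 (SE 0.23, edgeR adjusted p = 0.101), with 79.3 and 115 CPM against a lowest WT value of 143 CPM. Both genes were thus below all WT samples without passing the threshold. *TST2* had a log2 difference of 0.34 (SE 0.14, edgeR adjusted p = 0.244), with 125 and 133 CPM against a highest WT value of 119 CPM. Of the 10 genes, 5 did not overlap between the genotypes, 1 higher and 4 lower in *BRL3ox*, beside 37.0% of all genes. Without WT control replicate 2, the sample with the most leaf marker RNA and the fewest touch-responsive counts of its group, *ERD6* (-1.24, adjusted p = 0.0291) and *ESL1* (-1.00, adjusted p = 0.0441) were called. In that fit 4.47% of all genes were called, against 0.772% with all samples. Without WT control replicate 3, the highest *ERD6* sample of its group, the *ERD6* difference shrank to -0.56 (adjusted p = 0.241), and over all fits with a library left out it was -1.25 to -0.56 for *ERD6* and -1.16 to -0.63 for *ESL1*. The touch- and wound-responsive genes summed to 2206 and 2799 CPM in *BRL3ox* control, below all WT controls (2958 to 5873 CPM), and whether they bear on the *ERD6* and *ESL1* values was not tested.

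In drought, the comparison of the genotypes gave 1 called gene, *ERD6*, which was lower in *BRL3ox*. Of all genes tested 3.51% were called, 2.12% lower. An unadjusted p under 0.05 was found for 7 of the 10 genes and for 23.1% of all genes. The median log2 difference was -0.45 over the 10 genes, against -0.00 over all genes tested. *ERD6* was at 369, 415 and 482 CPM in WT and at 179, 147 and 157 CPM in *BRL3ox* drought samples, so that its highest *BRL3ox* value lay under its lowest value in WT drought. The level was 2.62-fold lower (log2 difference -1.39, SE 0.27, edgeR adjusted p = 0.0246).

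The other genes were not called in this comparison. *STP1* (log2 difference -0.59, edgeR adjusted p = 0.0787), *PMT5* (-0.57, adjusted p = 0.0898), *TST1* (-0.36, adjusted p = 0.0587) and *STP4* (-0.42, adjusted p = 0.112) were lower in *BRL3ox* in all samples. *TST2* (0.35, adjusted p = 0.118) was higher in all samples, with 246 to 286 CPM against 182 to 226 CPM in WT drought. In all, 6 genes did not overlap between the genotypes in drought, beside 27.9% of all genes tested. *ESL1* (-0.48, adjusted p = 0.191), *SUC1* (-0.48, adjusted p = 0.268), *SUC4* (0.22, adjusted p = 0.322) and *STP13* (-0.01, adjusted p = 0.990) overlapped. *STP13* reached nearly the same level in both genotypes, 26.1 to 27.8 CPM in WT and 24.6 to 28.4 CPM in *BRL3ox* drought samples, although an SE of 0.25 on the log2 scale leaves room for a difference. The *ERD6* call was kept without WT drought replicate 1 (log2 difference -1.48, edgeR adjusted p = 0.0423) and lost without any other single drought library. The edgeR adjusted p was 0.0602 without WT drought replicate 2, 0.0583 without WT drought replicate 3, and 0.0558, 0.107 and 0.0563 without *BRL3ox* drought replicates 1, 2 and 3, with log2 differences of -1.47 to -1.29 in these 5 fits. The endodermal root markers *CASP1* and *CASP2* were also lower in *BRL3ox* drought roots, by 1.87-fold and 1.93-fold (edgeR adjusted p = 0.0383 and 0.0284). They were the 2 called of the 8 root markers, and the other endodermal or stele markers *MYB36* (log2 difference 0.22), *SCR* (0.03) and *SHR* (0.09) were not called. The root markers *EXPA7* (-0.84, edgeR adjusted p = 0.129) and *COBL9* (-0.83, adjusted p = 0.0657) were lower by nearly as much as *CASP1* (-0.91) without being called. *PYK10* was at -0.09. Touch- and wound-responsive genes summed to 5747 to 6271 CPM there and 5522 to 7768 CPM in WT. Their part in the *ERD6* difference was not tested.

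**Figure D3:**
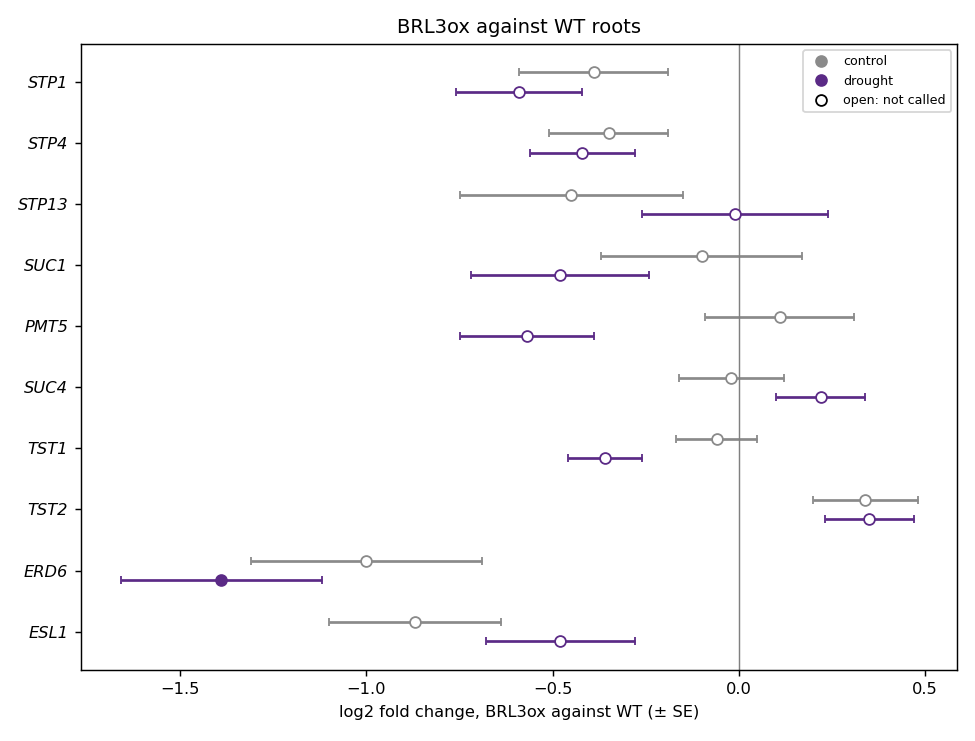
Log2 difference of *BRL3ox* against WT (± SE from the edgeR fit) in control and in drought for the 10 transporter genes, with a filled point for the one call. *ERD6* is lowest in both conditions (-1.00 and -1.39), and *TST2* is the gene with values above 0.3 in both (0.34 and 0.35).

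The 2 gene pairs printed above by sequence differed in how their balance moved. The ratio of *TST2* to *TST1*, each per kilobase of exon, was 0.645, 0.813 and 0.627 in WT control and 1.25, 1.64 and 2.03 in WT drought samples. In *BRL3ox* it was 0.932 and 0.910 in control and 2.64, 2.85 and 2.41 in drought samples. On this scale *TST1* RNA thus exceeded *TST2* RNA in every control sample and the reverse held in every drought sample. In control samples the order depended on the division by exon length. In CPM, *TST2* was above *TST1* in WT control replicate 2 (119 against 115) and in *BRL3ox* control replicates 1 and 3 (125 against 105 and 133 against 115). It was below *TST1* in WT control replicates 1 and 3 (94.2 and 92.0 against 115). Within each condition all *BRL3ox* samples had a higher ratio than all WT samples.

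The ratio of *ESL1* to *ERD6* was 0.832, 0.914 and 0.586 in WT control, 0.782, 0.910 and 0.885 in WT drought and 0.771 and 0.807 in *BRL3ox* control samples. In *BRL3ox* drought it was 1.72, 1.60 and 1.53. These 3 samples were the ones in which *ESL1* was above *ERD6*, with no overlap with any other group. The ratios are given as a description, with no test. The ratio of *SUC4* to *SUC1*, the tonoplast and plasma membrane sucrose carriers, was 0.117 to 0.151 in WT control and 0.137 and 0.141 in *BRL3ox* control samples. It was 0.288 to 0.576 in WT drought and 0.524 to 0.858 in *BRL3ox* drought samples, so that it was higher in drought in both genotypes. *STP13* remained the minor hexose carrier, at 0.0366 to 0.0712 of the *STP1* level in control samples of both genotypes and 0.0821 to 0.166 of it in drought samples.

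**Figure D4:**
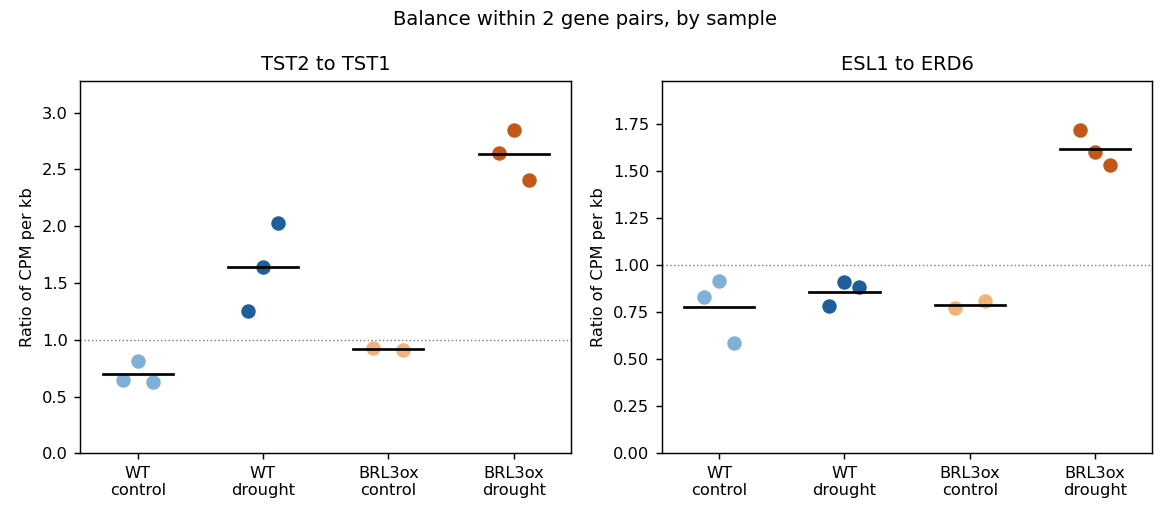
Ratio of *TST2* to *TST1* and of *ESL1* to *ERD6* (CPM per kb of exon) in every sample, by group, with a line at the group mean and a dotted line at a ratio of 1. The *TST2* to *TST1* ratio crosses 1 between control and drought in both genotypes on this per-kilobase scale, though not in CPM for every control sample. The *ESL1* to *ERD6* ratio is over 1 in the *BRL3ox* drought samples alone (1.53 to 1.72).

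Over the 11 samples, which share the 4 groups, the log2 levels of *SUC4* and *TST2* had a Pearson correlation of 0.95, those of *STP13* and *ESL1* 0.87 and those of *SUC1* and *TST1* 0.86. The lowest values, -0.86, were those of *TST2* with *TST1* and with *SUC1*. Once the group means were taken out, *SUC4* and *TST2* remained at 0.71, whereas *STP13* and *ESL1* were at 0.45, *TST1* and *TST2* at -0.46, and *SUC1* and *TST2* at 0.12. *ERD6* and *ESL1* were at 0.79 over all samples and at 0.87 after the group means were taken out, so these neighbours varied together among replicates although their group means differed in *BRL3ox* drought. *STP1* and *STP4* likewise were at 0.80 and 0.86. High values among replicates were not limited to neighbours. Once the group means were taken out, *ERD6* was also at 0.74 with *PMT5* and 0.72 with *STP13*, genes of other chromosomes, and at -0.60 with *SUC1*. These values describe the samples and were not tested.

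Of the 10 genes, 3 overlap annotated genes on the other strand. *STP1* overlaps AT1G11270, which had 70 to 119 counts where *STP1* had 2795 to 5888. *TST1* (1621 to 2722 counts) overlaps AT1G05607, which had 0 counts in every sample, and AT1G20830 (127 to 179 counts), with which it shared no stretch of a read's length. *TST2* (1689 to 6199 counts) overlaps AT4G35295 (5 to 19 counts) and AT4G09145 (0 counts in every sample). Stretches of 45 bases, the read length after trimming, that also occur in other genes made up 11.9% of the *STP1*, 5.62% of the *TST1* and 8.85% of the *TST2* exons, and 0% of those of the other 7 genes. *ERD6* and *ESL1* therefore shared no stretch of a read's length.

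Around these genes stand 49 other sugar transporter genes of the same families, of which 35 passed the filter. The 14 others had at most 19 counts in a sample, and 5 of them had 0 in every sample. With drought, 5 of the 35 rose and 1 fell in WT, and 7 rose and 1 fell in *BRL3ox*, beside the 12.4% and 16.1% of all genes called. Between genotypes 2 were lower in *BRL3ox* in control and 2 in drought, where 0.555% and 2.12% of all genes were called lower. In the interaction test 0 passed, beside 0.951% of all genes, and 0 passed by DESeq2 or by the likelihood ratio test. At an unadjusted p under 0.05 in edgeR's interaction test there were 4 of 35, beside 10.8% of all genes. The median log2 fold changes with drought were 0.01 in WT and 0.16 in *BRL3ox*.

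*INT2*, a plasma membrane inositol carrier, had the largest rise, from 0.487 to 1.14 CPM in WT control to 3.22 to 4.79 CPM in WT drought, and from 1.01 and 1.65 CPM to 5.61 to 7.20 CPM in *BRL3ox*. The groups were well apart in both genotypes, with log2 fold changes of 2.53 (SE 0.32, edgeR adjusted p = 9.5e-04) and 2.28 (SE 0.34, adjusted p = 0.00170), at low counts (11 to 156 per sample). The sucrose carriers *SUC2*, which loads the phloem, and *SUC3* were called higher in drought than in control within *BRL3ox* (log2 fold changes 0.87 and 0.96, edgeR adjusted p = 0.00610 and 0.00359), as was AT5G17010 (0.74, adjusted p = 0.0110). In WT, *SUC2* (0.31, edgeR adjusted p = 0.175) and *SUC3* (0.49, adjusted p = 0.0418 with a fold of 1.40) were not called. Between genotypes neither was called, with log2 differences of -0.53 and -0.74 in control and 0.04 and -0.26 in drought. Without *BRL3ox* control replicate 1 the calls of *SUC2* (adjusted p = 0.0816) and AT5G17010 (0.0925) were lost, and that of AT5G17010 also without *BRL3ox* control replicate 3 (0.0788) or, by its fold, *BRL3ox* drought replicate 1 (log2 fold change 0.58). Of the 5 phloem markers, *PP2-A1* (0.59, edgeR adjusted p = 0.0236) and *NAKR1* (0.66, adjusted p = 0.0199) were also called higher with drought within *BRL3ox*, while *APL* (0.01), *SEOR1* (-0.04) and *CALS7* (0.14) were not. The 5 markers summed to 444 and 456 CPM in *BRL3ox* control and 519 to 603 CPM in *BRL3ox* drought samples. Their part in the *SUC2* and *SUC3* values was not tested. No other member of the STP, TST or PMT families was called in any of the 4 comparisons, with 5, 1 and 3 genes tested.

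The ERD6-like family, which made up 16 of the 35 other genes tested, held 7 of the 11 called at least once. The share of all genes called at least once was not counted. AT1G08890, which lies upstream of *ESL1* in the same stretch of chromosome 1, rose in WT (log2 fold change 0.86, edgeR adjusted p = 8.7e-04) and in *BRL3ox* (1.02, adjusted p = 6.8e-04). The family member that lies between AT1G08890 and *ESL1* was not called in either genotype (0.16 and 0.40). AT5G18840 rose in both (0.81 and 0.94, adjusted p = 0.00373 and 0.00264). *ERDL6*, an exporter of glucose from the vacuole, rose in both as well (0.59 and 0.82, adjusted p = 0.0108 and 0.00365). AT3G20460 was called higher in WT drought (1.09, adjusted p = 0.00491) and AT1G54730 lower (-0.59, adjusted p = 0.0101). *ERDL6* and AT1G54730 lay at the fold threshold in WT. *ERDL6* fell under it without WT drought replicate 2 or WT control replicate 2 (0.48 each), and AT1G54730 without WT drought replicate 1 (-0.49) or WT control replicate 2 (-0.58) or 3 (-0.52).

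*ERDL6* was also lower in *BRL3ox* than in WT in both conditions, like *ERD6* in drought. It was at 83.6, 67.0 and 90.2 CPM in WT control against 43.0 and 43.3 CPM in *BRL3ox* control, and at 116, 139 and 107 CPM in WT drought against 82.6, 71.9 and 74.6 CPM in *BRL3ox* drought samples. There was no overlap in either condition, with log2 differences of -0.89 (SE 0.15, edgeR adjusted p = 0.0338) and -0.66 (SE 0.13, adjusted p = 0.0228). AT2G48020 was lower in basal conditions, with 50.7, 49.1 and 49.6 CPM in WT and 31.6 and 31.5 CPM in *BRL3ox* (-0.66, SE 0.12, adjusted p = 0.0449). AT3G05150 was lower in drought (-1.11, SE 0.22, adjusted p = 0.0257), with 12.8, 7.90 and 8.96 CPM in WT and 4.10, 3.55 and 6.08 CPM in *BRL3ox*. It also fell with drought in *BRL3ox* (-0.89, adjusted p = 0.0266). The basal calls were lost most often. Leaving out 1 library ended that of *ERDL6* in 6 of 11 fits and that of AT2G48020 in 7 of 11. These include each fit without a *BRL3ox* control sample, which leaves 1 sample in that group. The log2 differences stayed at -1.01 to -0.80 and at -0.67 to -0.65. The share of all genes called in this comparison moved as well, from 0.772% to 0.0193%, 4.47% and 0.203% without WT control replicates 1, 2 and 3. Without WT control replicate 1 or 3 the adjusted p was 0.120 or 0.0603 for *ERDL6* and 0.132 or 0.0761 for AT2G48020, and without a drought library it reached 0.0540 and 0.0618. In drought, the call of *ERDL6* was lost without WT drought replicate 2 (0.0636) or *BRL3ox* drought replicate 2 (0.103) or 3 (0.0541). That of AT3G05150 was lost without WT drought replicate 1 (0.0581) or *BRL3ox* drought replicate 1 (0.0740) or 2 (0.103), and its fall in *BRL3ox* without either control or either of these drought replicates (0.0686 to 0.142).

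**Figure D5:**
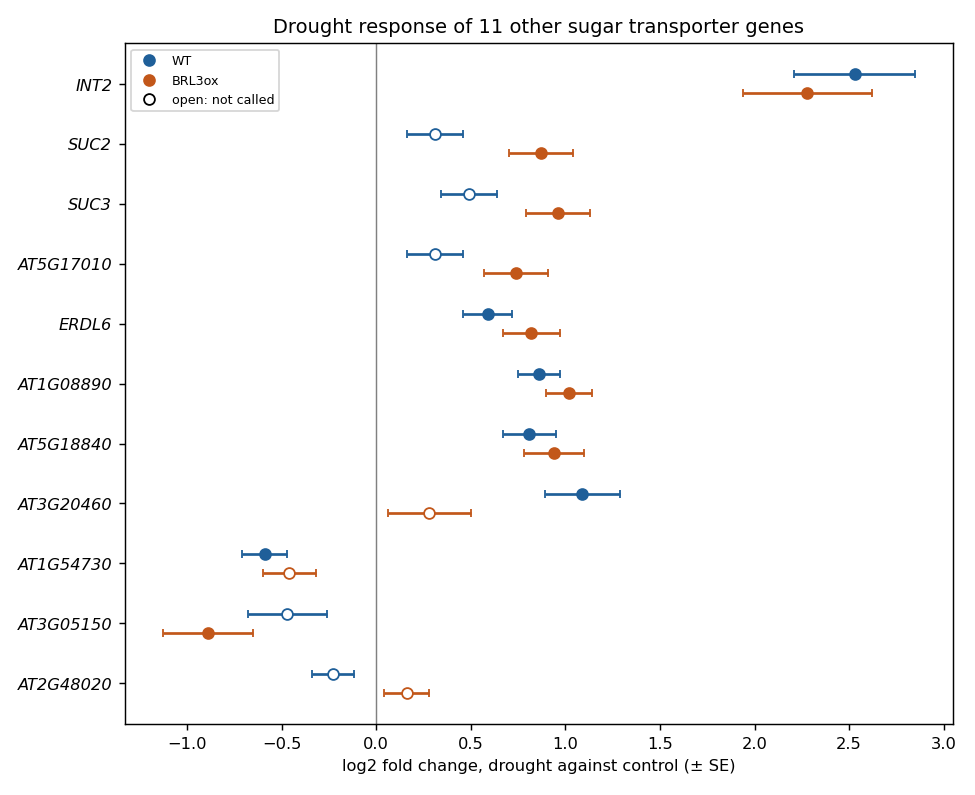
Log2 fold change of drought against control (± SE from the edgeR fit) in WT and *BRL3ox* roots for the 11 other sugar transporter genes called in at least 1 comparison, with filled points for calls. *INT2* lies farthest to the right (2.53 and 2.28), and *ERDL6*, AT1G08890 and AT5G18840 are called higher in both genotypes.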

How the data were processed

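RNAseq of poly(A) RNA from roots was analysed in 11 samples. The authors deposited raw counts per gene, 1 table per sample. Per the labels, libraries were made with a stranded kit, and per the submitters' processing notes reads were checked with FastQC, mapped to TAIR10 with HISAT2 2.1.0 and counted with HTSeq 0.9.1. The strand setting of the counting is not given in the sources used here, so reads of a gene and of an antisense partner may not be told apart. HTSeq's summary classes (10.5 to 12.9% of reads) stayed out of library sizes and tests.

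Of the 33341 identifiers, 33056 matched TAIR10.1 (RefSeq), which gave coordinates, exon lengths and promoters. Genes kept by filterByExpr (20718) were fitted with TMM normalization in edgeR 4.0.16 (R 4.3.3) by a quasi-likelihood model with 1 coefficient per group over all 11 samples. The common coefficient of variation was 0.159, with 7 residual and 3.48 prior degrees of freedom. A gene was called where its Benjamini-Hochberg FDR was under 0.05 and its fold was over 1.5, and for the interaction an unadjusted p under 0.0025. CPM used TMM-scaled library sizes, and for correlations a prior count of 2 was added before log2. The SE was the log2 fold change divided by the square root of F. The code was tested on simulated data.

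Alternatives were RLE normalization, DESeq2 1.42.0, edgeR's likelihood ratio test, no filter or at least 10 counts in every sample, a replicate block, a model of only the groups compared, no fold threshold, and leaving out each sample. The text names all 10 genes, *BRL3* as the label check, and of the other sugar transporter genes those called in a pairwise comparison, up to 12. Single root, phloem and drought marker genes were named after their values were seen. The genes, lists and tests were chosen with earlier results of these data known. Replicates of a group differed by more than sampling noise (chi-square per degree of freedom 8.28 to 42.8). Protein sequences were not used here.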

Additional observations from a re-analysis of the deposited data

How the results depend on the processing

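Of 890 recomputed values of the 10 genes, 831 kept direction and side of the threshold, 20 lost a call, 16 gained one and 23 changed sign. The count of the 10 genes called was 6 in WT drought (3 with only the 2 groups compared, 3 to 6 with a library left out, lowest without WT drought replicate 3) and 5 in *BRL3ox* drought (3 to 5, lowest without *BRL3ox* control replicate 1). In basal conditions it was 0 (2 by DESeq2, 2 by the likelihood ratio test, 0 to 2 with a library left out). Between genotypes in drought it was 1 (2 by DESeq2 and 2 by the likelihood ratio test, which added *STP1*, and 0 to 1 with a library left out). The interaction count was 0 in every fit.

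Of the other transporter genes, 6 were called in WT drought (10 with no fold threshold, 4 to 8 with a library left out) and 8 in *BRL3ox* drought (5 to 10). In basal conditions there were 2 (4 by the likelihood ratio test, 0 with only the 2 groups compared, 0 to 3 with a library left out). Between genotypes in drought there were 2 (4 by DESeq2, 4 by the likelihood ratio test, 5 with no fold threshold, 0 to 3 with a library left out), and for the interaction 0 (0 to 1).

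Labels do not tie same-numbered replicates together. Their deviations from group means correlated at 0.150 on average over 15 pairs (-0.09 to 0.41, 11 above 0.1), and 10 of 11 samples correlated best with their own number, a hint from the data and not the design. With a replicate block, 1 of the 10 genes was called in basal conditions (*ESL1*) and 2 in drought (*ERD6* and *STP1*), and 4 and 4 of the other genes. Of all genes 3.47% and 5.95% were called in these fits. The block turned the sign of *PMT5* in *BRL3ox* drought (0.07), of *SUC1* (0.06) and *SUC4* (0.04) in basal conditions and of the *TST2* interaction (-0.06), and raised *ERD6* in WT drought over the threshold (0.91, edgeR adjusted p = 0.0165), as did DESeq2 (0.0129) and the likelihood ratio test (0.0160).

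With a library left out, uncalled values crossed 0 for *STP4* in WT drought (-0.26 to 0.02), *STP1* (-0.08 to 0.32) and *PMT5* (-0.15 to 0.13) in *BRL3ox* drought, *SUC1* (-0.23 to 0.04), *PMT5* (-0.03 to 0.29) and *SUC4* (-0.07 to 0.02) in basal conditions, *STP13* between genotypes in drought (-0.05 to 0.05), and the interactions of *STP1* (-0.39 to 0.02), *STP4* (-0.18 to 0.12) and *TST2* (-0.12 to 0.08). The cause was not tested. No called gene of the 10 changed sign.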
